A study of Homo sapiens with 14 samples.

Results

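The genes described here are 38 cholesterol and fatty acid synthesis genes, taken from a list of symbols. They fell into 18 sterol synthesis enzymes, 6 genes of sterol sensing and transport, 12 fatty acid genes and 2 sterol efflux pumps. All 38 were among the 13734 genes of the deposited expression table, 37 under the listed symbol and SC5DL under its current symbol SC5D. All 38 also passed the filter on low values, which left 13674 genes for testing.

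RNA was sequenced from MDA-MB-231, a human triple-negative breast cancer cell line, grown in DMEM:F12 with 10% FBS. The study asked how BET proteins, which read acetylated histones, relate to the transcription driven by the Hippo pathway coactivators YAP and TAZ. There were 14 libraries in 7 groups of 2, and the labels do not say whether the libraries of a group came from separate cultures, so p-values measure only the spread between libraries, which may be technical. Reads in genes ranged from 15741695 to 37311326 per library.

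Cells of 5 groups were transfected with siRNA using Lipofectamine RNAiMAX. These were a control siRNA, YAP/TAZ siRNA mix 1 and mix 2, harvested at 48 h, and mix A and mix B against BRD genes of the BET family, harvested at 72 h. The other groups received DMSO or JQ1, a small molecule that blocks the bromodomains of BET proteins, at 1 µM for 24 h. No harvest time is given for the control siRNA or the DMSO cells. Time is therefore confounded with the siRNA target, and the siRNA groups and the DMSO and JQ1 groups differ in transfection as well as in treatment. All groups share 1 cell line.

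Cells make cholesterol from acetyl-CoA through mevalonate, squalene and lanosterol, and make fatty acids from acetyl-CoA through malonyl-CoA and palmitate. Both routes are controlled by SREBP transcription factors, encoded by SREBF1 and SREBF2, which the sterol sensor SCAP escorts out of the endoplasmic reticulum when sterols are scarce and which INSIG proteins hold back when sterols are plentiful. Sterol excess instead activates LXR receptors, which induce the efflux pumps ABCA1 and ABCG1 and also SREBF1. SREBPs commonly act together with NF-Y, a factor that binds CCAAT boxes, at promoters of these genes.

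Promoter windows of 300 bases, from 250 before to 50 after the start, were taken from RefSeq on GRCh38.p14, and 33 of the 38 genes had one. Motifs were searched on both strands, and none of the 3 contains another. The CCAAT box was found in 21 of the 33 windows, or 63.6%, against 34.6% of all 35116 promoters of that length. It was found in 12 of 15 sterol synthesis enzymes, 3 of 6 sensing and transport genes and 6 of 11 fatty acid genes. An E box, CACGTG, was found in 6 of the 33 windows, 18.2% against 7.26% of all promoters. The SREBP element TCACNCCAC was found in 1, that of SREBF2, against 1.13% of all promoters. A match is only a run of letters in this window, and a window without one says nothing about binding.

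The stretches below come from 5 genes whose levels differed widely between groups, and they are the parts of each promoter that hold its CCAAT boxes, with the SREBP element in SREBF2. Capitals mark the motifs, and ATTGG is CCAAT read from the opposite strand. MSMO1 is at chr4:165327472-165327651 on the plus strand, HMGCS1 at chr5:43313496-43313579 on the minus strand, INSIG1 at chr7:155297696-155297724 on the plus strand, SCD at chr10:100346992-100347063 on the plus strand and SREBF2 at chr22:41832960-41833015 on the plus strand. Each lies upstream of the gene's start and is written 5′ to 3′ along the gene's strand.
MSMO1: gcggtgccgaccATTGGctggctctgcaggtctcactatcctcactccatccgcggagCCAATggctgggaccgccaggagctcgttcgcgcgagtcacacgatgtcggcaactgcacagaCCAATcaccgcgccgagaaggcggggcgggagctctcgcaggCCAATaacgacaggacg
HMGCS1: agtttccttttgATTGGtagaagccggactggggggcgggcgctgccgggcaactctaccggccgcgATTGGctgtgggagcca
INSIG1: cgccggcctcccATTGGttgcggccgcct
SCD: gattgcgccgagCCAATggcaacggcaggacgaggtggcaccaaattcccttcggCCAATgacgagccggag
SREBF2: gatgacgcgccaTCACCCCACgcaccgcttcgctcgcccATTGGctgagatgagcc

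Levels are given as the deposited values, which are RPM (reads in genes normalized to sequencing depth) scaled by a factor per library and are called scaled RPM here; 1 read was worth 0.0276 to 0.0602. Fold changes are differences in log2(scaled RPM + 1) with their standard error (SE), tested with limma over all tested genes with Benjamini-Hochberg adjustment, and a gene rose or fell only where its adjusted p was under 0.05. The added 1 understates changes of genes at low levels, chiefly ABCG1. Since these are bulk libraries, fewer cells expressing a gene and less RNA per cell cannot be told apart.

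The targeted genes followed the labels. YAP1 was at 174 to 190.0 scaled RPM with control siRNA and 18.6 to 24.2 with the YAP/TAZ mixes, and WWTR1, which encodes TAZ, was at 126 to 135 and 12.7 to 17.2. YAP1 was also lower with the BRD mixes, at 94.5 to 106, and with JQ1, at 101 to 105 against 181 to 191 with DMSO. WWTR1 was at 147 to 154 with mix A, 94.6 to 98.1 with mix B, 81.8 to 82.3 with DMSO and 63.9 to 66.5 with JQ1. BRD3 was at 29.7 to 32.5 with control siRNA and 9.05 to 10.6 with the BRD mixes. BRD2 was at 251.4 and 252.2 with control siRNA, 154 to 204 with the BRD mixes, 241 and 257 with DMSO, and 919 and 955 with JQ1. All 7 markers of mesenchymal-like breast cancer cells were measured, with VIM at 2894 to 6615. The others varied as well, with AXL at 353 to 2451, S100A4 at 105 to 985 and CD44 at 73.6 to 359. CAV1 was at 280 to 818, MSN at 576 to 1077 and LGALS1 at 540 to 1385. Of 8 luminal markers 5 were measured, and they differed widely. KRT18 was at 482 to 1687, ERBB2 at 46.5 to 98.0 and EPCAM at 4.05 to 18.6, while GATA3 and FOXA1 did not exceed 2.10 and 1.38.

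**Figure D1:**
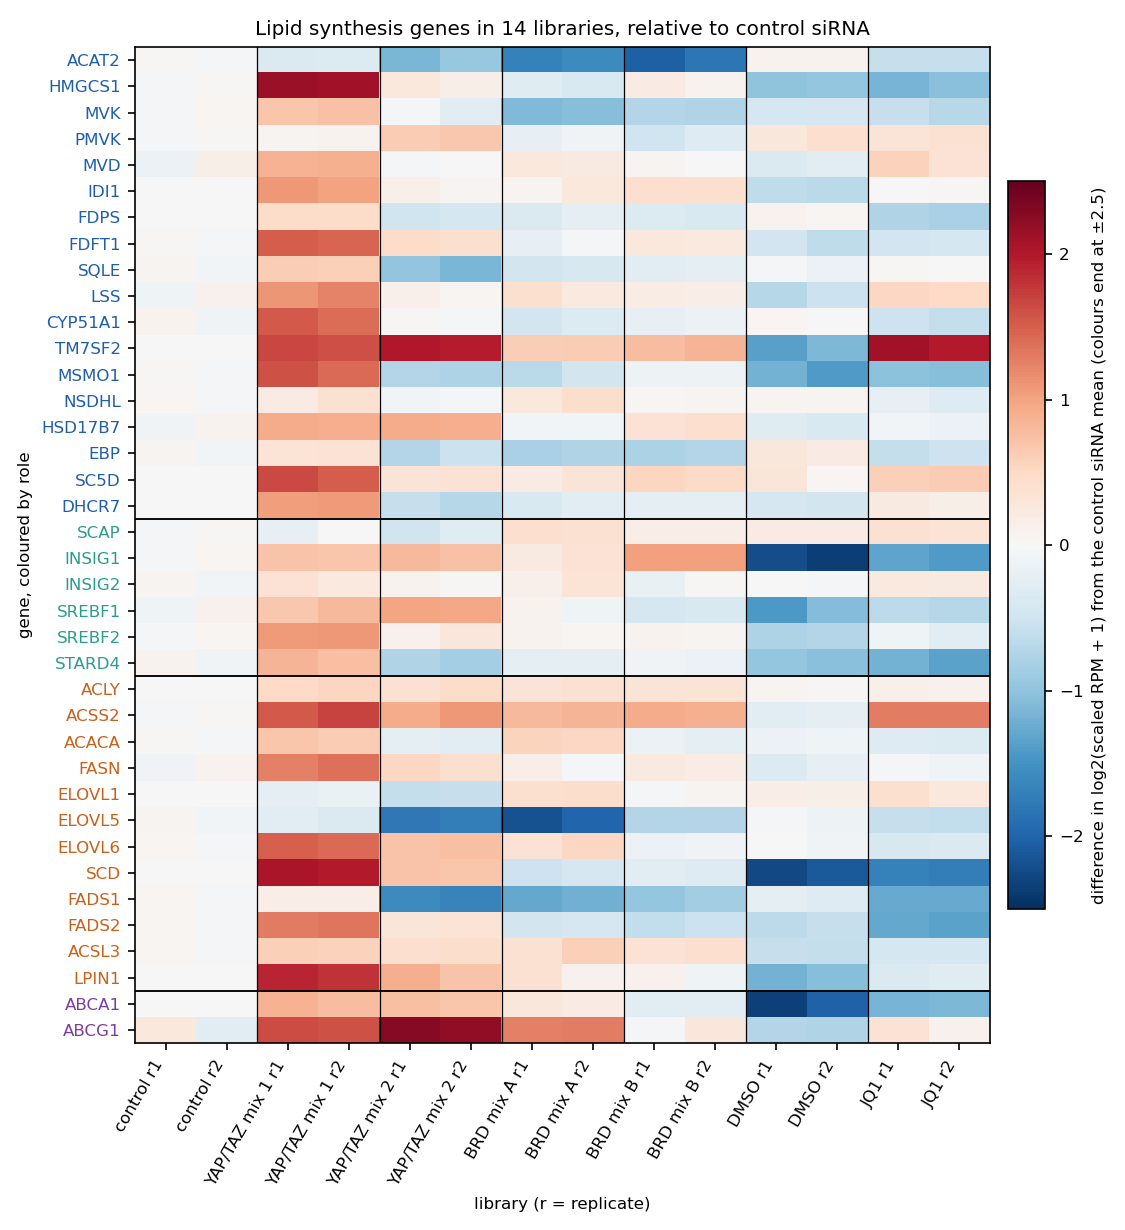
Difference of each library from the control siRNA mean, in log2(scaled RPM + 1), for the 38 genes (rows, coloured by role) in 14 libraries (columns, r = replicate). YAP/TAZ mix 1 is red over most rows, mix 2 mixes red and blue, and DMSO is darkest blue at INSIG1, SCD and ABCA1.

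With YAP/TAZ siRNA, taken as the mean of both mixes against control siRNA, lipid synthesis genes mostly rose. Of the 38 genes 28 rose, where 43.1% of all tested genes did, and 6 fell, where 35.9% did. Their median log2 fold change was 0.54, beside 0.07 over all tested genes. ABCG1, TM7SF2 and SCD rose most, and ELOVL5, FADS1 and ACAT2 fell most. The 2 mixes differed widely in these genes: mix 1 raised 33 and lowered 3, against 40.6% and 33.6% of all genes, and mix 2 raised 19 and lowered 12, against 42.7% and 35.7%. The median was 0.86 with mix 1 and 0.15 with mix 2, and both mixes were compared with the same 2 control libraries.

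The sterol synthesis enzymes differed between the mixes. Of the 18, 16 rose and 1 fell with mix 1, and 6 rose and 6 fell with mix 2. Over all tested genes, 40.6% rose and 33.6% fell with mix 1, and 42.7% and 35.7% with mix 2. The mix 2 counts thus did not exceed those shares. HMGCS1, the synthase that makes HMG-CoA, was at 68.0 and 71.6 scaled RPM with control siRNA, 315 and 302 with mix 1, and 83.7 and 77.0 with mix 2. Its mix 1 libraries stood far above the other 4, and mix 2 lay just above control. The log2 fold change was 2.13 ± 0.07 with mix 1 and 0.20 ± 0.07 with mix 2 (limma adjusted p = 0.010). The mix 2 call was lost without control replicate 1 (adjusted p = 0.072) or mix 2 replicate 1 (0.13). MSMO1, a sterol methyl oxidase that removes methyl groups from lanosterol-derived sterols, was at 114 and 108 with control siRNA, 336 and 298 with mix 1, and 66.7 and 64.4 with mix 2. No library of one group overlapped another, and control lay between the mixes, with changes of 1.504 ± 0.08 and -0.75 ± 0.08.

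SQLE, squalene epoxidase, gave the same order, with 27.0 and 24.6 in control, 39.9 and 39.3 in mix 1, and 12.6 and 11.2 in mix 2. Its log2 fold change was 0.60 ± 0.08 with mix 1 and -1.06 ± 0.08 with mix 2. IDI1, the isomerase of isoprenoid building blocks, was at 102 and 100.2 in control, 217 and 204 in mix 1, and 111 and 106 in mix 2. It rose with mix 1, by 1.05 ± 0.06, and had 0.10 ± 0.06 with mix 2, which did not pass the test (limma adjusted p = 0.15). LSS, which closes the squalene rings to lanosterol, was at 65.9 and 75.7 in control, 154 and 168 in mix 1, and 77.1 and 72.9 in mix 2. Mix 2 overlapped control for LSS, and mix 1 stood above both. FDPS, the farnesyl diphosphate synthase, was at 193 and 194 in control, 266 and 267 in mix 1, and 138 and 142 in mix 2, so that it rose by 0.46 ± 0.05 with mix 1 and fell with mix 2 (-0.47 ± 0.05). FDPS has near-identical pseudogene copies that could take some of its reads. EBP, a sterol isomerase, was at 42.8 and 39.4, 52.2 and 53.0, and 24.4 and 28.2 in the same 3 groups, also with control between the mixes.

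Other enzymes did not follow that order. TM7SF2, a sterol reductase of the lanosterol branch, was at 11.8 and 12.1 scaled RPM in control, 40.3 and 38.7 in mix 1, and 50.5 and 49.5 in mix 2. All 4 knockdown libraries were above control, and the log2 fold change was 1.65 ± 0.08 with mix 1 and 1.98 ± 0.08 with mix 2. TM7SF2 overlaps VPS51 on the same strand, so part of its count may be shared. ACAT2, a cytosolic thiolase that makes acetoacetyl-CoA, was at 161 and 155 in control, 122 and 125 in mix 1, and 70.7 and 81.6 in mix 2, below control in all 4 libraries. It fell with both mixes, with -0.35 ± 0.07 and -1.04 ± 0.07; ACAT2 overlaps TCP1 and SOD2 on the opposite strand, and no strand setting of the counting was given in the sources used here. PMVK, phosphomevalonate kinase, was at 19.3 and 20.04 in control, 20.7 and 21.0 in mix 1 and 31.1 and 31.9 in mix 2, so mix 2 alone stood apart. HSD17B7, a sterol ketone reductase, rose about equally, by 0.92 ± 0.10 with mix 1 and 0.91 ± 0.10 with mix 2. The remaining enzymes FDFT1, SC5D, CYP51A1, MVD, MVK, DHCR7 and NSDHL rose with mix 1 by 0.29 to 1.58. Among these 7, FDFT1, squalene synthase, and SC5D, a sterol desaturase, also rose with mix 2, by 0.43 and 0.34. Without mix 1 replicate 2 NSDHL lost its call (limma adjusted p = 0.055). DHCR7, the reductase that makes cholesterol itself, fell with mix 2 (-0.64 ± 0.06).

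The sterol sensing genes rose in part with both mixes. INSIG1, which retains SCAP in the endoplasmic reticulum, was at 106 and 112 scaled RPM in control, 179 and 177 in mix 1, and 193 and 182 in mix 2. SREBF1 was at 134 and 156 in control, 229 and 253 in mix 1, and 287 and 284 in mix 2. For both genes all 4 knockdown libraries stood above control, with log2 fold changes of 0.70 ± 0.06 and 0.78 ± 0.06 for INSIG1 and 0.73 ± 0.09 and 0.98 ± 0.09 for SREBF1. SREBF2 was at 54.5 and 57.6 in control, 119 and 119.7 in mix 1, and 60.3 and 68.2 in mix 2, so mix 1 stood apart and mix 2 only slightly exceeded control. It rose by 1.08 ± 0.07 and by 0.19 ± 0.07 (limma adjusted p = 0.016), the latter lost without control replicate 1 (0.10) or mix 2 replicate 2 (0.25). STARD4, a cholesterol carrier, was at 67.5 and 59.6 in control, 116 and 108 in mix 1, and 37.4 and 34.7 in mix 2, with control between the mixes and a mean change over both of 0.00 ± 0.06. SCAP fell over both mixes (-0.26 ± 0.06), and INSIG2 had 0.18 ± 0.08 at an adjusted p of 0.048 by limma, a call that was lost under 12 of 24 alternative settings.

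Among the fatty acid genes, 10 of 12 rose and 2 fell with mix 1, and 8 rose and 4 fell with mix 2. Over all tested genes, 40.6% rose and 33.6% fell with mix 1, and 42.7% and 35.7% with mix 2. The falls with mix 2 thus lay near the share over all genes. The 4 genes from acetyl-CoA supply to palmitate, ACLY, ACSS2, ACACA and FASN, all rose with mix 1, with a median of 0.99, and 3 of the 4 rose with mix 2. FASN, the fatty acid synthase, was at 274 and 306 scaled RPM in control, 692 and 750.0 in mix 1, and 417 and 383 in mix 2. ACSS2, which makes acetyl-CoA from acetate, was at 30.9 and 32.3, 93.6 and 104, and 61.0 and 68.3 in those groups. For FASN and ACSS2 the 3 groups did not overlap and ran from control through mix 2 to mix 1. FASN rose by 1.31 ± 0.07 and 0.46 ± 0.07, and ACSS2 by 1.61 ± 0.07 and 1.01 ± 0.07. ACACA, the carboxylase that makes malonyl-CoA, was at 115 and 109 in control, 181 and 175 in mix 1, and 94.6 and 91.4 in mix 2, again with control between the mixes. ACLY, which makes acetyl-CoA from citrate, rose by 0.52 ± 0.05 and 0.42 ± 0.05.

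Elongases and desaturases divided by gene. SCD, the desaturase that makes monounsaturated fatty acids, was at 569 and 555 scaled RPM in control, 2328 and 2220.4 in mix 1, and 921 and 903 in mix 2. ELOVL6, which extends palmitate, was at 54.5 and 51.5 in control, 152 and 144 in mix 1, and 87.2 and 90.4 in mix 2. All knockdown libraries of SCD and ELOVL6 stood above control, and mix 1 stood above mix 2. SCD rose by 2.02 ± 0.06 and 0.70 ± 0.06, and ELOVL6 by 1.46 ± 0.06 and 0.73 ± 0.06. FADS1 and ELOVL5, which build polyunsaturated fatty acids, were low with mix 2. FADS1 was at 338 and 319 in control, 367 and 367 in mix 1, and 109 and 103 in mix 2. ELOVL5 was at 256 and 231 in control, 199 and 189.7 in mix 1, and 70.1 and 73.2 in mix 2. In mix 2 the FADS1 change was -1.62 ± 0.06 and the ELOVL5 change -1.75 ± 0.07; with mix 1 they were 0.16 ± 0.06 and -0.32 ± 0.07. The small rise of FADS1 with mix 1 was lost without control replicate 2 (limma adjusted p = 0.11), mix 1 replicate 1 (0.056) or mix 1 replicate 2 (0.056). FADS2, the other desaturase of that route, rose with both mixes, by 1.32 ± 0.05 and 0.32 ± 0.05; FADS1 and FADS2 overlap on opposite strands, and FADS2 also overlaps FEN1 on the same strand. ELOVL1, an elongase of very long chains, fell over both mixes (-0.39 ± 0.05). ACSL3, which activates fatty acids, and LPIN1, a phosphatidate phosphatase, rose over both, by 0.50 ± 0.05 and 1.33 ± 0.07.

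Both efflux pumps rose with each YAP/TAZ mix. ABCA1 was at 119 and 116 scaled RPM in control, 216 and 202 in mix 1, and 197 and 190.4 in mix 2. ABCG1 was at 1.81 and 0.963 in control, 6.23 and 6.05 in mix 1, and 10.4 and 9.91 in mix 2. All 4 knockdown libraries of each pump stood above control. ABCA1 rose by 0.82 ± 0.07 and 0.72 ± 0.07, and ABCG1 by 1.60 ± 0.15 and 2.25 ± 0.15. Counted by library, 20 of the 38 genes were higher in all 4 YAP/TAZ libraries than in both control libraries, against 35.6% of all genes, and 3, ACAT2, ELOVL1 and ELOVL5, were lower, against 29.1%.

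**Figure D2:**
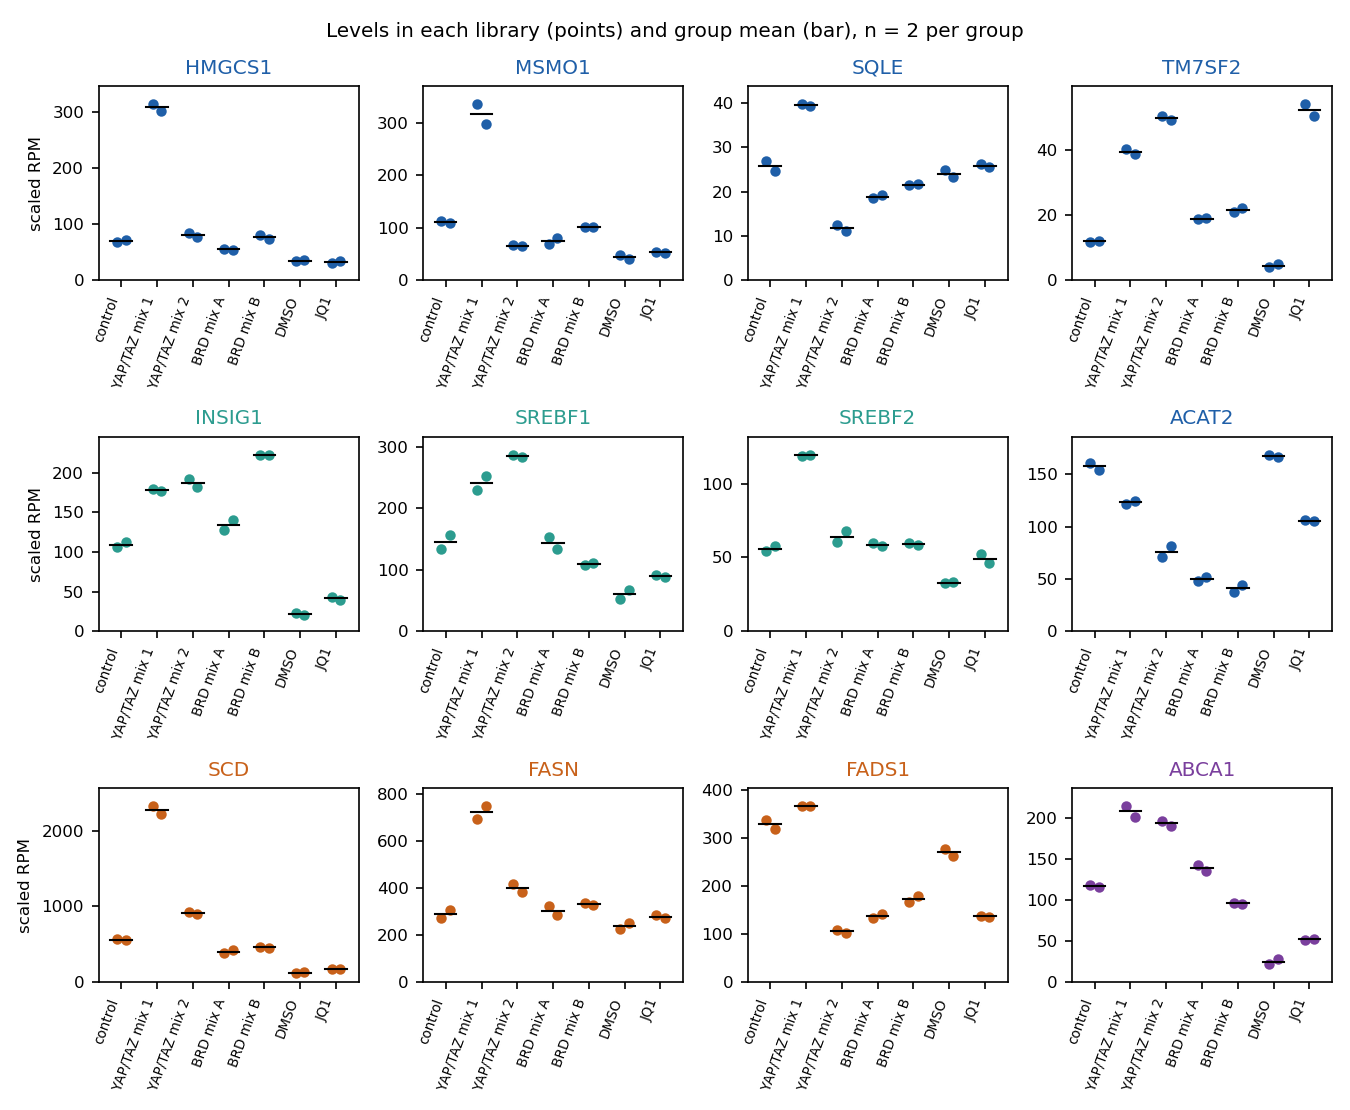
Level in scaled RPM (linear axis from 0) of 12 of the 38 genes in each library (points) with the mean of each group (bar), 2 libraries a group, title coloured by role. HMGCS1, MSMO1 and SCD stand out in YAP/TAZ mix 1, TM7SF2 is high in both YAP/TAZ mixes and in JQ1, and INSIG1, SCD and ABCA1 are lowest in DMSO.

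Markers of other cell types also moved with YAP/TAZ siRNA. The summed level of leukocyte markers, of which 2 of 5 were measured, was 6.45 to 7.28 scaled RPM in control, 29.4 in both libraries of mix 1 and 26.4 to 30.0 in mix 2, mostly LYZ. Fibroblast and endothelial markers, 3 of 5, summed to 9.65 to 13.5 in control, 42.5 to 43.8 in mix 1 and 31.1 to 32.9 in mix 2. Adipocyte markers, 4 of 4, summed to 3.25 to 3.57, 8.05 to 8.77 and 5.83 to 7.73. In every library ADIPOQ was at 1.104 or less, FABP4 at 1.75 or less, PLIN1 at 2.38 or less and LPL at 4.37 or less. The hepatocyte marker APOA1, 1 of 4, was 0.160 to 0.301 in control and 7.69 to 9.68 in mix 2. Mesenchymal markers summed to 6117 to 6348 with mix 1, below control at 7289 to 7434, and to 7620 to 8016 with mix 2, above control. The part of all these markers in the changes of lipid genes was not tested.

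Set directly against each other, the 2 YAP/TAZ mixes differed in most of the genes. Mix 1 was higher than mix 2 for 30, against 30.9% of all tested genes, and lower for 4, against 34.8%. The median difference was 0.89, beside -0.03 over all genes. It was 0.96 for the sterol enzymes, of which 15 of 18 were higher, and 0.89 for the fatty acid genes, of which 11 of 12 were higher and ACLY did not pass (0.09 ± 0.05).

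MSMO1 differed most, by 2.25 ± 0.08, followed by HMGCS1, 1.93 ± 0.07, and FADS1, 1.79 ± 0.06. DHCR7, SQLE and STARD4 followed at 1.70, 1.66 and 1.60. The 4 genes that were lower in mix 1 were ABCG1 (-0.65 ± 0.15), PMVK (-0.57 ± 0.08), TM7SF2 (-0.33 ± 0.08) and SREBF1 (-0.24 ± 0.09), of which SREBF1 lost its call without mix 1 replicate 1 (limma adjusted p = 0.18) or either mix 2 library (0.086 and 0.067). INSIG1 at -0.07 ± 0.06, ABCA1 at 0.10 ± 0.07 and HSD17B7 at 0.01 ± 0.10 did not pass the test; these intervals are of the difference between mixes and do not show equality. The genes ACACA, DHCR7, EBP, FADS1, FDPS, MSMO1, SQLE and STARD4 rose with mix 1 and fell with mix 2. The share of all tested genes that did so was not counted. Levels of the targets differed less, YAP1 by 0.22 ± 0.07 and WWTR1 by 0.33 ± 0.06 on the log2 scale.

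**Figure D3:**
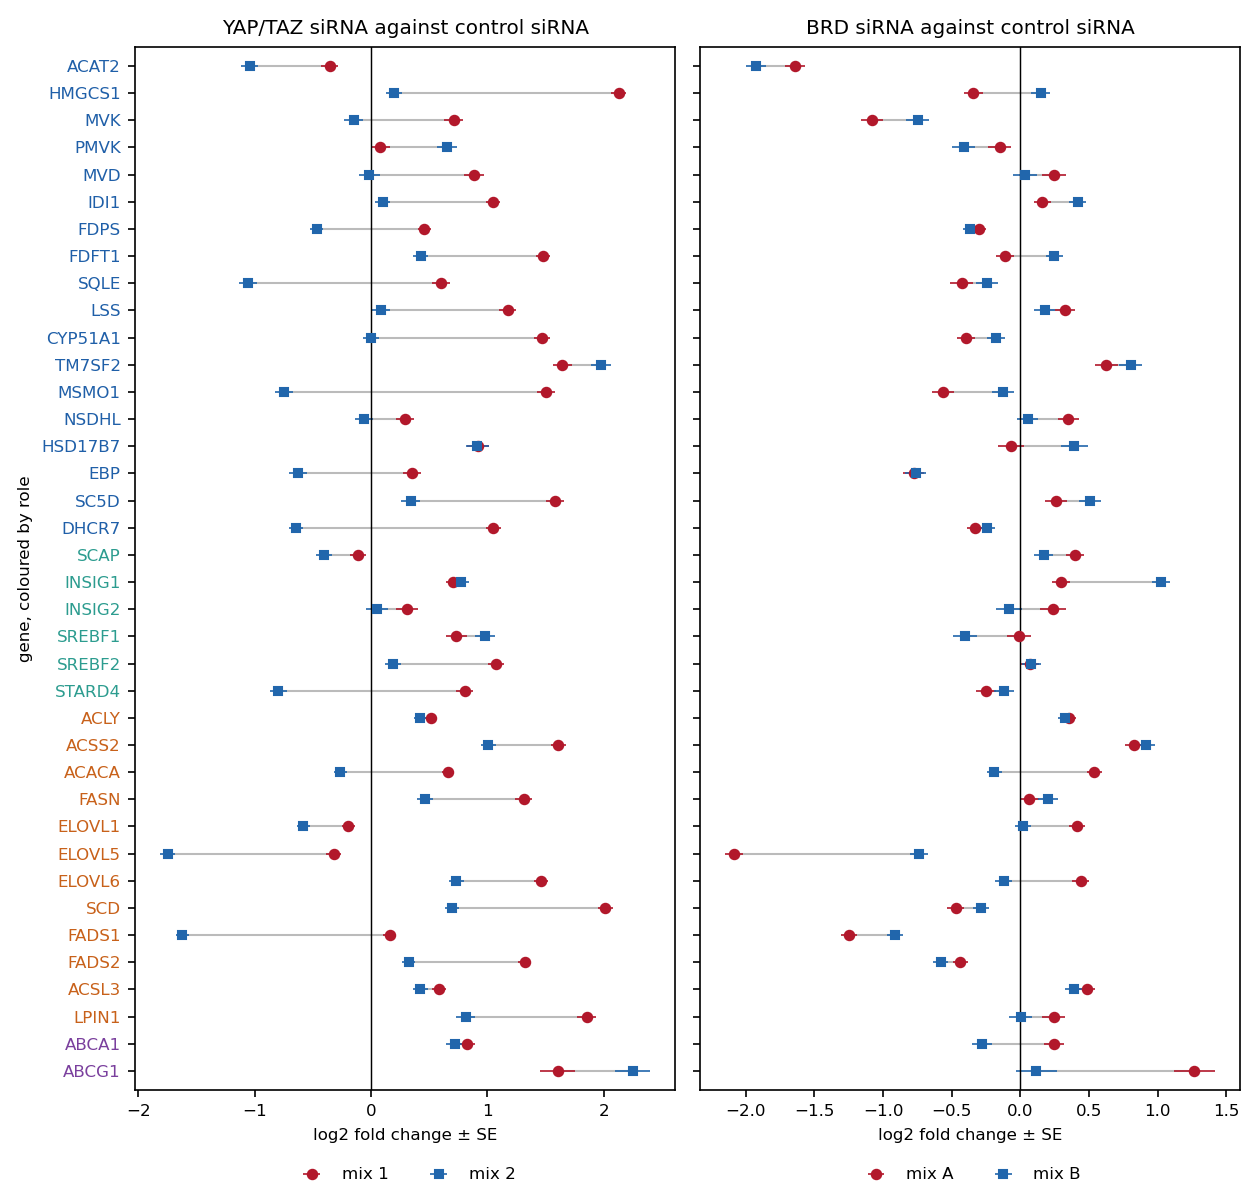
Log2 fold change with its SE of each of the 38 genes against control siRNA, for the YAP/TAZ mixes (left) and the BRD mixes (right), with a grey line joining the mixes. The YAP/TAZ mixes are far apart for HMGCS1, MSMO1, SQLE and FADS1 and close for INSIG1, ABCA1 and HSD17B7, while the BRD mixes are farthest apart for ELOVL5 and ABCG1.

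With BRD siRNA, as the mean of both mixes against the same control siRNA, the lipid genes moved both ways. Of the 38 genes 14 rose, where 37.6% of all tested genes did, and 15 fell, where 37.6% did, with a median of 0.08 beside -0.00 over all genes. ACSS2, TM7SF2 and ABCG1 rose most, and ACAT2, ELOVL5 and FADS1 fell most. Of the 18 sterol synthesis enzymes 5 rose and 9 fell, and of the 12 fatty acid genes 6 rose and 4 fell. Mix A raised 18 and lowered 14 of the 38, against 37.2% and 36.1% of all genes, and mix B raised 12 and lowered 15, against 35.3% and 35.5%, with the same 2 control libraries in both. By library, 10 genes were higher in all 4 BRD libraries than in both controls, against 32.4% of all genes, and 13 were lower, against 32.1%.

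Among the sterol enzymes, ACAT2 was at 47.9 and 51.9 scaled RPM with mix A and 37.8 and 44.2 with mix B, against 161 and 155 in control. All 4 BRD libraries were far below both controls, and the log2 fold change was -1.78 ± 0.06. MVK, mevalonate kinase, and EBP also fell, with -0.92 ± 0.07 and -0.77 ± 0.07; MVK overlaps MMAB on the opposite strand. EBP was at 22.9 and 24.1 with mix A and 23.3 and 24.4 with mix B, below both controls at 42.8 and 39.4. FDPS was at 150.4 and 164 with mix A and 152 and 149 with mix B, below both controls as well, at -0.33 ± 0.05. SQLE was at 18.5 and 19.3 with mix A and 21.4 and 21.7 with mix B, below the control libraries at 27.0 and 24.6, with -0.34 ± 0.07. CYP51A1, the lanosterol demethylase, fell too (-0.29 ± 0.06), as did DHCR7 (-0.29 ± 0.05), MSMO1 (-0.35 ± 0.07) and PMVK (-0.28 ± 0.07). CYP51A1 overlaps a pair of unnamed protein-coding genes on the same strand.

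TM7SF2 went the other way, with 18.9 and 19.1 scaled RPM in mix A and 21.0 and 22.2 in mix B against 11.8 and 12.1 in control, and rose by 0.72 ± 0.07. SC5D, IDI1, LSS and NSDHL rose by 0.39, 0.29, 0.25 and 0.20. IDI1 was at 106 and 121 with mix A and 136 and 136 with mix B, all above the controls at 102 and 100.2. HMGCS1 was at 56.5 and 53.3 with mix A and 81.1 and 73.8 with mix B, which lay on either side of the controls at 68.0 and 71.6, and its mean change of -0.10 ± 0.06 did not pass the test (limma adjusted p = 0.13). The LSS call was lost without control replicate 1 (adjusted p = 0.079) and that of NSDHL without control replicate 2 (0.11).

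INSIG1 rose with both BRD mixes, with 128 and 141 scaled RPM in mix A, 223 and 222 in mix B and 106 and 112 in control. Mix B stood apart from both other groups, and the log2 fold change was 0.30 ± 0.06 with mix A and 1.02 ± 0.06 with mix B. SREBF2 was at 59.9 and 57.6 with mix A and 59.9 and 58.6 with mix B against 54.5 and 57.6 in control, and 0.07 ± 0.06 did not pass. SREBF1 was at 154 and 134 with mix A, within the control range of 134 to 156, and at 108 and 111 with mix B, below it. Its fall over both mixes, -0.20 ± 0.08, had a limma adjusted p of 0.021 and was lost without control replicate 2 (adjusted p = 0.37) or mix A replicate 2 (0.063). SCAP rose by 0.28 ± 0.06, and STARD4 fell (-0.18 ± 0.06), a call lost without control replicate 1 (adjusted p = 0.26).

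Of the fatty acid genes, ACSS2 rose most, with 56.4 and 57.5 scaled RPM in mix A and 61.1 and 59.5 in mix B against 30.9 and 32.3 in control. It rose by 0.87 ± 0.06, ACSL3 by 0.44 ± 0.05 and ACLY by 0.34 ± 0.05. FASN was at 324 and 284 with mix A and 337 and 328 with mix B against 274 and 306, which overlapped, and 0.13 ± 0.06 did not pass (limma adjusted p = 0.059). Desaturases fell together: FADS1 was at 134 and 141 with mix A and 168 and 180.1 with mix B, and SCD at 390.1 and 419.6 with mix A and 469.8 and 450.2 with mix B. Every BRD library of FADS1 and SCD was below both controls, with changes of -1.08 ± 0.05 and -0.38 ± 0.05, and FADS2 fell as well (-0.51 ± 0.05). ELOVL5 was at 52.8 and 60.5 with mix A and 145 and 146 with mix B against 256 and 231 in control. It fell with both mixes and further with mix A, -2.09 ± 0.07 against -0.74 ± 0.07. ELOVL6 was at 68.7 and 75.9 with mix A and 47.5 and 49.7 with mix B, which lay above and below the controls at 54.5 and 51.5. Its mean rise over both mixes, 0.16 ± 0.05, was lost without control replicate 2 (limma adjusted p = 0.12).

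The efflux pumps differed between the BRD mixes. ABCA1 was at 143 and 135 scaled RPM with mix A and 97.4 and 95.9 with mix B, on either side of the controls at 119 and 116. ABCG1 was at 4.65 and 4.67 with mix A and 1.26 and 1.88 with mix B against 1.81 and 0.963. ABCA1 rose by 0.24 ± 0.07 with mix A and fell with mix B (-0.28 ± 0.07), and ABCG1 rose with mix A, by 1.27 ± 0.15, and had 0.12 ± 0.15 with mix B, which did not pass.

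Some marker sums moved with BRD siRNA as well. Leukocyte markers summed to 2.84 to 2.94 scaled RPM with mix A and 2.17 to 2.48 with mix B, below control at 6.45 to 7.28. Adipocyte markers summed to 1.01 to 1.47 with mix A and 1.28 to 1.63 with mix B, below control at 3.25 to 3.57. Mesenchymal markers summed to 7766 to 8215 with mix A and 7927 to 8312 with mix B, above control at 7289 to 7434. Fibroblast and endothelial markers overlapped control with mix A, at 10.3 to 12.9, and lay below it with mix B, at 7.37 to 8.44. The part of these sums in the lipid gene changes was not tested.

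Set directly against mix B, mix A was higher for 14 of the 38 genes, against 25.7% of all genes, and lower for 12, against 24.3%, with a median difference of -0.01. ABCG1, ACACA and ELOVL6 were higher with mix A by 1.15 ± 0.15, 0.73 ± 0.05 and 0.56 ± 0.06. ACACA was at 166 and 160.0 scaled RPM with mix A and 101 and 95.4 with mix B, above and below the controls at 115 and 109, although its fall with mix B was lost without mix B replicate 2 (limma adjusted p = 0.063). ELOVL5, INSIG1 and HMGCS1 were lower with mix A, with -1.35 ± 0.07, -0.73 ± 0.06 and -0.49 ± 0.07. Of the 18 sterol enzymes 4 were higher with mix A and 8 lower. The count of 14 was 9 without mix B replicate 1, and MVD, at 0.21 ± 0.09 and a limma adjusted p of 0.048, lost its call in 14 of 24 settings. The 2 libraries of mix A differed from each other by a chi-square of 10.8 per gene, against 3.46 to 5.05 in the other groups.

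JQ1 was compared with DMSO, a pair of groups that shares no library with the siRNA comparisons. Of the 38 genes 20 rose, where 37.6% of all tested genes did, and 12 fell, where 36.3% did, with a median of 0.16 beside 0.01 over all genes. TM7SF2, ACSS2 and LSS rose most, and FADS1, FDPS and EBP fell most. The sterol enzymes gave 8 higher and 6 lower of 18, the sensing and transport genes 4 and 1 of 6, the fatty acid genes 6 and 5 of 12, and both efflux pumps rose. By library, 23 genes were higher in both JQ1 libraries than in both DMSO libraries, against 44.5% of all genes, and 13 lower, against 43.4%.

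TM7SF2 was at 4.02 and 4.92 scaled RPM with DMSO and 54.4 and 50.5 with JQ1. Its log2 fold change of 3.29 ± 0.08 (limma adjusted p = 6.3e-18) was the highest of any of the 38 genes in this comparison, 9.79-fold on the log2(value + 1) scale. LSS was at 42.7 and 48.7 with DMSO and 102 and 99.9 with JQ1, and rose by 1.13 ± 0.07. IDI1 was at 65.1 and 63.2 with DMSO and 100.2 and 103 with JQ1, and rose by 0.66 ± 0.06. Both JQ1 libraries of these genes stood above DMSO, as did those of MVD and DHCR7, which rose by 0.79 ± 0.09 and 0.63 ± 0.06. MSMO1 was at 48.6 and 41.2 with DMSO and 53.7 and 52.2 with JQ1, and its rise of 0.24 ± 0.08 was lost without DMSO replicate 2 (limma adjusted p = 0.23) or JQ1 replicate 1 (0.060).

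Other sterol enzymes fell or held near DMSO. FDPS was at 206 and 202 scaled RPM with DMSO and 115 and 109.8 with JQ1, a change of -0.85 ± 0.05. EBP was at 50.2 and 47.5 with DMSO and 26.8 and 28.2 with JQ1, a change of -0.81 ± 0.08. ACAT2 was at 169 and 167 with DMSO and 106 and 106 with JQ1, a change of -0.66 ± 0.07. None of these 3 genes overlapped between the groups. CYP51A1 fell as well (-0.59 ± 0.07). HMGCS1 was at 34.3 and 35.4 with DMSO and 30.5 and 33.5 with JQ1, and -0.12 ± 0.07 did not pass (limma adjusted p = 0.12). SQLE was at 24.96 and 23.2 with DMSO and 26.3 and 25.5 with JQ1, and 0.10 ± 0.08 did not pass (limma adjusted p = 0.27).

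The SREBP genes and INSIG1 rose with JQ1. INSIG1 was at 22.5 and 20.5 scaled RPM with DMSO and 43.2 and 40.0 with JQ1. SREBF1 was at 53.1 and 67.4 with DMSO and 91.4 and 87.8 with JQ1. SREBF2 was at 32.6 and 33.4 with DMSO and 52.2 and 46.4 with JQ1. The groups did not overlap for any of them, and the log2 fold changes were 0.92 ± 0.06, 0.58 ± 0.09 and 0.56 ± 0.07. STARD4 fell (-0.26 ± 0.07), a call lost without JQ1 replicate 2 (limma adjusted p = 0.070), and SCAP, at 0.15 ± 0.07, had a limma adjusted p of 0.052 that fell below the threshold in 12 of 24 settings.

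ACSS2 led the fatty acid genes, with 26.2 and 27.0 scaled RPM in DMSO and 77.9 and 78.4 in JQ1, a rise of 1.52 ± 0.07. SCD was at 116 and 131 with DMSO and 173 and 169.7 with JQ1, a rise of 0.47 ± 0.06. FASN was at 228 and 251.2 with DMSO and 284 and 272 with JQ1, a rise of 0.22 ± 0.07 that was lost without DMSO replicate 1 (limma adjusted p = 0.14) or JQ1 replicate 1 (0.077). LPIN1 rose by 0.79 ± 0.08. The genes of polyunsaturated fatty acids fell: FADS1 was at 277 and 263 with DMSO and 137 and 136 with JQ1, and changed by -0.98 ± 0.06. ELOVL5 was at 238 and 224 with DMSO and 164 and 159 with JQ1, and changed by -0.51 ± 0.07. FADS2 had -0.70 ± 0.05. Libraries of DMSO and JQ1 did not overlap for FADS1, ELOVL5 or SCD. ACACA was at 101 and 104 with DMSO and 89.0 and 88.6 with JQ1, and ELOVL6 at 52.5 and 49.8 with DMSO and 39.9 and 41.2 with JQ1; both fell, with -0.20 ± 0.05 and -0.33 ± 0.06. ACLY, at 0.07 ± 0.05, did not pass.

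ABCA1 was at 22.4 and 28.0 scaled RPM with DMSO and 51.8 and 53.4 with JQ1, and rose by 1.04 ± 0.07. ABCG1 was at 0.421 and 0.387 with DMSO and 2.01 and 1.54 with JQ1, and rose by 0.98 ± 0.15 on the scale that understates low genes. JQ1 libraries of both pumps stood above DMSO. The count of 20 rises was 14 without JQ1 replicate 1, 16 with DESeq2 on recovered reads and 22 with quantile normalization.

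Marker sums moved with JQ1 too. The 7 mesenchymal markers summed to 8889 to 8950 scaled RPM with DMSO and 12099 to 12213 with JQ1, and 5 of 8 luminal markers summed to 692 to 705 and 1737 to 1793, mostly KRT18. Leukocyte markers summed to 2.30 to 2.68 with DMSO and 1.83 to 1.88 with JQ1. The part of these shifts in the lipid gene changes was not tested.

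**Figure D4:**
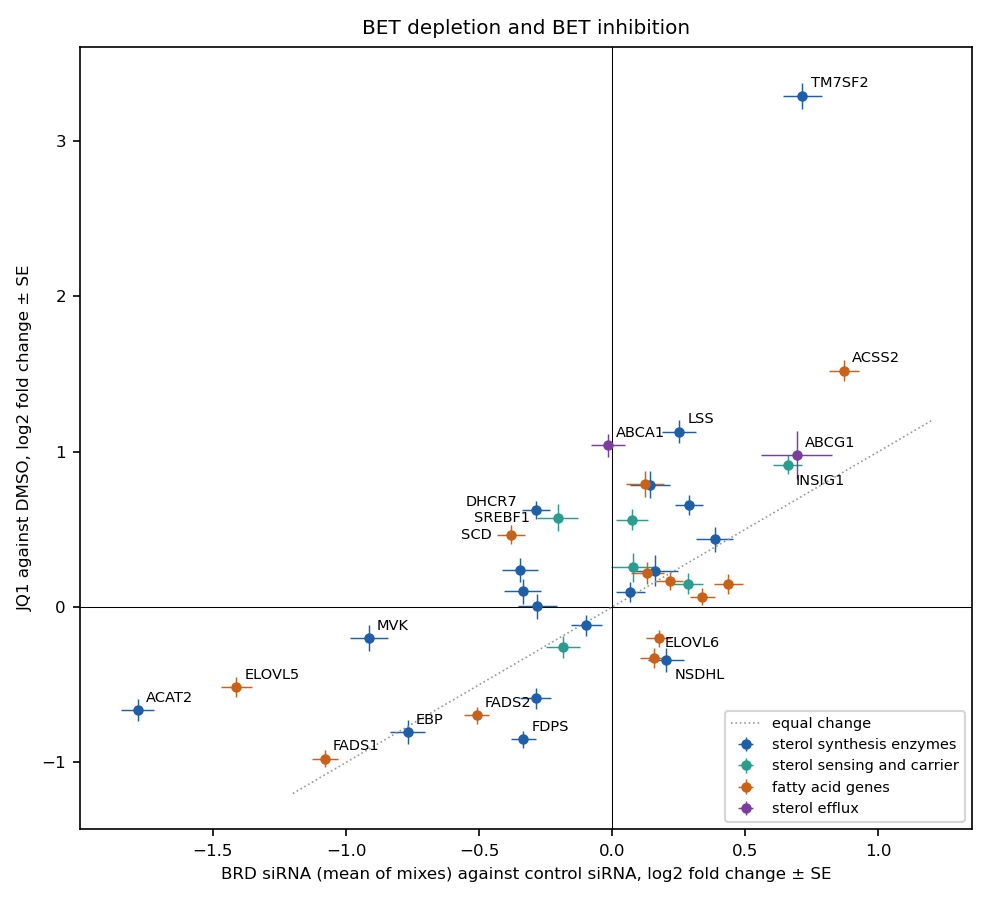
Log2 fold change with JQ1 against DMSO (vertical) plotted against that with BRD siRNA against control siRNA (horizontal), with SE bars, for the 38 genes coloured by role; the dotted line marks equal change. TM7SF2 lies far above the line at 0.72 and 3.29, FADS1 and EBP lie near it, and DHCR7, SREBF1 and SCD lie at upper left.

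BET depletion and BET inhibition, which used different controls, times and delivery, moved part of the genes alike. ABCG1, ACSL3, ACSS2, ELOVL1, IDI1, INSIG1, LSS, SC5D and TM7SF2 rose in both, 9 genes that make up 45% of the JQ1 rises and 64.3% of the BRD rises. Over all tested genes, 64.4% of the JQ1 rises also rose with BRD siRNA, and 64.3% of the BRD rises also rose with JQ1. ACAT2, CYP51A1, EBP, ELOVL5, FADS1, FADS2, FDPS, MVK and STARD4 fell in both, which is 75% of the JQ1 falls and 60% of the BRD falls, beside 66.3% and 64.1% over all tested genes. Of the 38 genes 23.7% rose in both and 23.7% fell in both, near the 24.2% and 24.1% of all genes that did. By the test of the difference between effects, JQ1 exceeded BRD siRNA for 18 genes, against 30.2% of all genes, and was lower for 8, against 29.9%, with a median of 0.22.

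The difference between these effects was highest for TM7SF2, 2.58 ± 0.11, followed by ACAT2, 1.12 ± 0.10, and ABCA1, 1.06 ± 0.10. That order depends on the tool for ABCG1, which had 0.29 ± 0.20 and did not pass, but 1.19 with edgeR and 1.18 with DESeq2 on recovered reads (adjusted p = 0.014 and 0.022). ACAT2 fell less with JQ1 (-0.66) than with BRD siRNA (-1.78). DHCR7, MSMO1, SCD and SREBF1 rose with JQ1 and fell with BRD siRNA, with differences of 0.91, 0.58, 0.85 and 0.78. Only DHCR7 and SCD among them fell with both BRD mixes. ACACA, ELOVL6 and NSDHL fell with JQ1 and rose with BRD siRNA as the mean of its mixes, with differences of -0.38, -0.49 and -0.54. None of them rose with both BRD mixes, and ACACA fell with mix B. These 7 are 18.4% of the 38 genes, beside 11% of all tested genes called in opposite directions, and 4 were left without control replicate 2, where the BRD calls of SREBF1, ELOVL6 and NSDHL were lost. For HMGCS1 the difference was -0.02 ± 0.09 and for FADS1 0.10 ± 0.07, and neither passed the test. Sterol enzymes gave 10 higher and 3 lower of 18 in this difference, and fatty acid genes 4 and 5 of 12. Over all tested genes, 30.2% were higher and 29.9% lower, so that the 4 of 12 lay near its share.

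Against YAP/TAZ siRNA, the JQ1 effect was lower for 22 genes, where 32.4% of all genes were, and higher for 10, where 30.9% were, with a median of -0.32. Of the 20 genes that rose with JQ1, 19, or 95%, also rose with YAP/TAZ siRNA, which is 67.9% of the 28 that rose there. Over all tested genes, 64.1% of the JQ1 rises also rose with YAP/TAZ siRNA, and 55.9% of the YAP/TAZ rises with JQ1. ELOVL1 was the exception, up 0.17 ± 0.06 with JQ1 and changed by -0.39 ± 0.05 with YAP/TAZ siRNA. These YAP/TAZ calls are of the mean of mix 1 and mix 2. Of the 19 genes, DHCR7 and MSMO1 fell with mix 2, and IDI1, INSIG2, LSS and MVD did not rise with both mixes. The falls overlapped less: ACAT2, ELOVL5 and FADS1 fell with JQ1 and with YAP/TAZ siRNA, although FADS1 rose slightly with mix 1. They are 25% of the 12 JQ1 falls, beside 63.4% over all tested genes. ACACA, CYP51A1, ELOVL6, FADS2 and MVK fell with JQ1 and rose with YAP/TAZ siRNA, with differences of -0.40, -1.32, -1.42, -1.52 and -0.48. These 5 genes are 41.7% of the JQ1 falls, beside 20.5% over all tested genes. Only ELOVL6 and FADS2 among them rose with both mixes, and ACACA fell with mix 2. The JQ1 call of ELOVL1 was lost without DMSO replicate 2 (limma adjusted p = 0.059) or JQ1 replicate 1 (0.22), and that of MVK without either DMSO library (0.078 and 0.13) or JQ1 replicate 2 (0.23). HMGCS1 also differed, by -1.28 ± 0.09, while for IDI1 the difference was 0.08 ± 0.08 and did not pass.

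The 2 control groups themselves differed in these genes. DMSO cells were lower than control siRNA cells for 23 of the 38, where 25.4% of all genes were, and higher for 4, where 28.7% were, with a median of -0.32 beside 0.01. INSIG1, at 22.5 and 20.5 scaled RPM against 106 and 112, had a log2 fold change of -2.29 ± 0.06. SCD and ABCA1 were also far lower, at -2.18 ± 0.06 and -2.18 ± 0.07, and MSMO1, SREBF1, TM7SF2, LPIN1 and STARD4 at -1.29, -1.26, -1.25, -1.12 and -1.01. PMVK, EBP, SCAP and ELOVL1 were higher, by 0.35, 0.24, 0.21 and 0.16; only the PMVK call held whichever library was left out. ABCA1, ACSL3, FDFT1, HMGCS1, INSIG1, LPIN1, MSMO1, SCD, SREBF1, SREBF2 and STARD4 were higher in all 10 siRNA libraries than in all 4 DMSO and JQ1 libraries, 11 of 38 where 5.53% of all genes were, and 0 of 38 were lower in all 10, where 5.13% were. Transfection, growth time and harvest cannot be told apart in this contrast.

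The siRNA effects had other sizes and, for some genes, another sign against DMSO than against control siRNA. Against DMSO, YAP/TAZ siRNA gave 28 higher and 6 lower, against 44.4% and 39.8% of all genes, with a median of 1.05. BRD siRNA gave 24 higher and 9 lower against DMSO, where 39.1% and 39.7% of all genes were, with a median of 0.36. SCD, for example, was 1.796 ± 0.05 above DMSO with BRD siRNA and -0.38 ± 0.05 from control siRNA. MSMO1 was 0.95 ± 0.07 above DMSO and -0.35 ± 0.07 from control siRNA, and DHCR7 0.15 ± 0.05 above DMSO, lost without DMSO replicate 2 (limma adjusted p = 0.092), and -0.29 ± 0.05 from control siRNA.

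**Figure D5:**
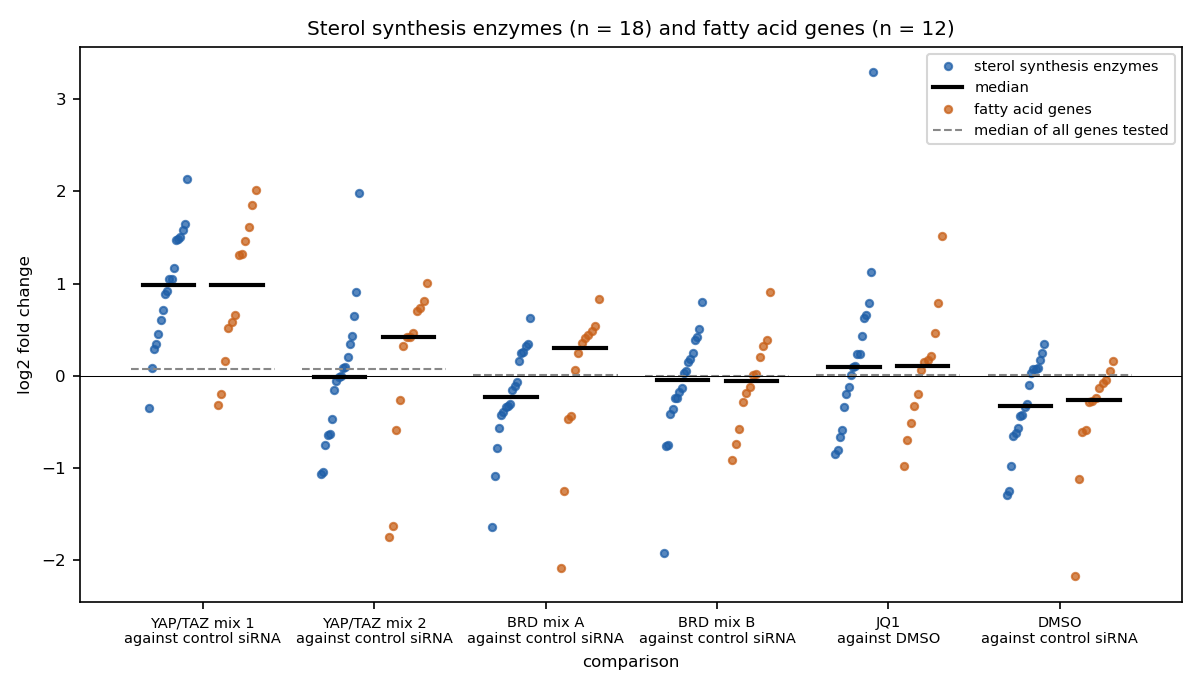
Log2 fold changes of the 18 sterol synthesis enzymes (blue points) and 12 fatty acid genes (orange points) in 6 comparisons, with the median of each (bar) and of all tested genes (dashed line). Medians are near each other at 0.98 and 0.99 with YAP/TAZ mix 1 and apart at -0.01 and 0.42 with mix 2.

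Sterol synthesis enzymes and fatty acid genes, set side by side without a test, had like medians with YAP/TAZ mix 1, 0.98 and 0.99. With mix 2 the medians were -0.01 and 0.42, with BRD mix A -0.23 and 0.30, with mix B -0.05 and -0.06, with JQ1 0.10 and 0.11, and with DMSO against control siRNA -0.32 and -0.26. Within the fatty acid genes, the 4 from acetyl-CoA supply to palmitate and the 6 elongases and desaturases were also set side by side without a test. Their medians were 0.99 and 0.74 with YAP/TAZ mix 1, 0.44 and -0.13 with mix 2, 0.45 and -0.46 with BRD mix A, 0.26 and -0.43 with mix B, 0.14 and -0.42 with JQ1, and -0.18 and -0.18 with DMSO against control siRNA. The 6 elongases and desaturases gave 4 rises and 2 falls with YAP/TAZ mix 1, 3 and 3 with mix 2, 2 and 4 with BRD mix A, 0 and 4 with mix B, and 2 and 4 with JQ1. Over all tested genes, 40.6% rose and 33.6% fell with YAP/TAZ mix 1, and 42.7% and 35.7% with mix 2. These shares were 37.2% and 36.1% with BRD mix A, 35.3% and 35.5% with mix B, and 37.6% and 36.3% with JQ1.

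Other genes of these pathways were read from lists outside the 38. Over all tested genes, 43.1% rose and 35.9% fell with YAP/TAZ siRNA, 37.6% and 37.6% with BRD siRNA, and 37.6% and 36.3% with JQ1. Of 21 sterol handling genes, 9 rose and 8 fell with YAP/TAZ siRNA, 12 and 7 with BRD siRNA, and 10 and 7 with JQ1, so that the YAP/TAZ counts lay near the shares over all genes. SOAT1, which esterifies cholesterol, fell with YAP/TAZ siRNA (-1.87 ± 0.05), and GGPS1, the geranylgeranyl diphosphate synthase, rose by 1.84 ± 0.06. TMEM97, a sterol-binding membrane protein, fell with BRD siRNA (-2.51 ± 0.09) and JQ1 (-1.84 ± 0.10), and LIPA, the lysosomal acid lipase, rose with BRD siRNA by 1.16 ± 0.05. With YAP/TAZ siRNA, TMEM97 had -2.06, the lowest log2 fold change of this list there. Its mean was 51.3 scaled RPM with control siRNA, 26.2 with mix 1 and 4.75 with mix 2. Mixes 1 and 2 gave 14 rises and 5 falls, and 3 rises and 14 falls, in this list, compared with the same controls, where 40.6% and 33.6% of all genes rose and fell with mix 1 and 42.7% and 35.7% with mix 2.

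Of 22 further fatty acid and glycerolipid genes, 14 rose and 4 fell with YAP/TAZ siRNA, 7 and 9 with BRD siRNA, and 14 and 6 with JQ1. The BRD counts again lay near the shares over all genes, 37.6% and 37.6%. ACSL1, which activates long-chain fatty acids, rose by 2.40 ± 0.06 with YAP/TAZ siRNA and 0.86 ± 0.06 with BRD siRNA. With JQ1, ACSL5, another such enzyme, fell (-2.81 ± 0.06) and DGAT1, which makes triglyceride, rose by 2.46 ± 0.10. Of 14 fatty acid oxidation genes, 10 rose and 0 fell with YAP/TAZ siRNA, 6 and 1 with BRD siRNA, and 10 and 2 with JQ1, beside 43.1% and 35.9%, 37.6% and 37.6%, and 37.6% and 36.3% of all genes. DECR1 rose by 0.95 ± 0.06 with YAP/TAZ siRNA, ACADM, a medium-chain dehydrogenase, by 1.15 ± 0.05 with BRD siRNA, and ACADS, its short-chain counterpart, by 1.05 ± 0.10 with JQ1.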

How the data were processed

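The authors deposited 1 table of normalized expression for 13734 genes and 14 libraries. Per the labels' protocols, RNA was extracted with RNeasy Mini, and libraries were made with the stranded TruSeq kit for total RNA after Ribo-Zero Gold depletion of ribosomal RNA. TopHat2 2.0.5, HTSeq 0.6.0, CASAVA 1.8.4, R 3.0.0, edgeR and hg19 are listed in the submitters' processing notes; on the roles of these tools, the annotation and the strand setting of the counting, nothing was given in the sources used here. Deposited values are a scaled signal: the columns sum to 903627 to 1098052, so they are not plain CPM, and in each library 100% of values are whole multiples of 1 read within a tolerance of 0.01, with scaling factors of 0.911 to 1.11. They were handled as scaled RPM, although CPM had been assumed. No column belonged to another series (0).

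Genes with at least 1 scaled RPM in at least 2 libraries were tested with limma 3.58.1 (R 4.3.3, trend) on log2(value + 1), in 1 model of 7 group terms over all 14 libraries (7 residual and 13.2 prior degrees of freedom, median residual SD 0.0852), two-sided, with Benjamini-Hochberg adjustment over all 13674 genes and a threshold of 0.05. The fit was tested on simulated data. Alternatives were other pseudocounts, filters and normalizations, edgeR 4.0.16 and DESeq2 1.42.0 on the recovered reads, a replicate block, and each library left out. Labels number the replicates 1 and 2 in each group without saying what a number shares. Correlations of same-numbered deviations between groups ran from -0.37 to 0.25, which does not settle whether the numbers pair any libraries.

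The 38 genes and all lists were chosen with earlier results of these data known. Values in every library are given for HMGCS1, IDI1, SQLE, INSIG1, SREBF1, SREBF2, FASN, SCD, ABCA1 and ABCG1 and for the 3 genes with the largest rise and the 3 with the largest fall in each of 5 comparisons; of other lists, up to 3 genes with the largest absolute statistic per comparison could be named. Gene overlaps come from GENCODE 29, promoters from RefSeq (33 of 38 genes matched). Python 3.11.15, numpy 2.4.6, pandas 2.3.3 and matplotlib 3.10.9 were used. Some further genes of these pathways are not reported here.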

Additional observations from a re-analysis of the deposited data

Results flagged for a closer look

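Some genes moved in opposite directions in 2 comparisons, and the difference between the effects passed the limma test. With YAP/TAZ siRNA, where both mixes share their controls, the genes that rose with mix 1 and fell with mix 2 differed in log2 fold change by 2.25 for MSMO1, 1.79 for FADS1, 1.70 for DHCR7, 1.66 for SQLE, 1.60 for STARD4, 0.98 for EBP, 0.93 for ACACA and 0.92 for FDPS. With BRD siRNA, ACACA and ABCA1 rose with mix A and fell with mix B, with differences of 0.73 and 0.52. For either pair of mixes, the share of all tested genes called in opposite directions was not counted.

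JQ1 and BRD siRNA, which have different controls and times, moved 7 genes in opposite directions, 18.4% of the 38 beside 11% of all tested genes. DHCR7, SCD, SREBF1 and MSMO1 rose with JQ1 and fell with BRD siRNA, with differences of 0.91, 0.85, 0.78 and 0.58. Only DHCR7 and SCD among them fell with both BRD mixes. ACACA, ELOVL6 and NSDHL fell with JQ1 and rose with BRD siRNA as the mean of its mixes, with differences of -0.38, -0.49 and -0.54. None of them rose with both BRD mixes, and ACACA fell with mix B. Without control replicate 2 the BRD calls of SREBF1, NSDHL and ELOVL6 were lost, with limma adjusted p of 0.37, 0.11 and 0.12, and 4 genes were left.

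JQ1 and YAP/TAZ siRNA moved 6 genes in opposite directions, 15.8% of the 38 beside 13.5% of all tested genes, and 4 to 8 when a library was left out. The 15.8% lies near the 13.5% over all tested genes, but the 2 directions differed. Of the 38 genes 2.63% rose with JQ1 and fell with YAP/TAZ siRNA, beside 6.02% of all tested genes. The reverse held for 13.2%, beside 7.46%. ELOVL1 rose with JQ1 and fell with YAP/TAZ siRNA, with a difference of 0.56. FADS2, ELOVL6, CYP51A1, MVK and ACACA fell with JQ1 and rose with YAP/TAZ siRNA as the mean of its mixes, with differences of -1.52, -1.42, -1.32, -0.48 and -0.40. Only FADS2 and ELOVL6 among them rose with both mixes, and ACACA fell with mix 2.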

How the results depend on the processing

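The counts of rises and falls among the 38 genes in 14 comparisons gave 28 counts, each under 24 alternative settings, of which 14 left out 1 library; settings for the 9 comparisons beyond the first 5 were chosen after seeing the data. Of the resulting 672 values, 5 differed from the reported count by more than 1.5 times. Genes higher with DMSO than with control siRNA numbered 4 as reported, 2 with quantile normalization and 1 to 4 when a library was left out, 1 without DMSO replicate 1 and 2 without control replicate 1. Genes with a lower JQ1 than BRD siRNA effect numbered 8 and 4 with quantile normalization. Genes higher with BRD mix A than mix B numbered 14, and 9 to 14 when a library was left out. The cause was not tested. Of 1728 values for genes named by rule, 10 lost the call, 6 gained one and 0 reversed; of 433 calls over all 38 genes, 0 reversed. With edgeR or DESeq2, ABCG1, which had 13 to 246 reads a library, lost its call for the JQ1 effect against the YAP/TAZ siRNA effect, -0.37 and -0.36 in place of -0.95. It gained one against the BRD siRNA effect, 1.19 and 1.18 in place of 0.29, and also with a pseudocount of 0.25 (0.72) and without control replicate 2 (0.54).

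With the replicate number as a block, YAP/TAZ siRNA raised 27 genes in place of 28, JQ1 21 in place of 20, mix A against mix B 13 in place of 14, and DMSO lowered 24 in place of 23. INSIG2 with YAP/TAZ siRNA and MVD between mix A and mix B lost the call, with limma adjusted p of 0.054 for each, and SCAP with JQ1 and ACACA with DMSO against control siRNA gained it, with 0.047 and 0.049; the block changed no other call. The 2 libraries in each group limit what small differences can show, and ABCG1 has few reads.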
